A study of Mus musculus with 8 samples.

Results

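The genes described here are 10 genes of the Notch signalling pathway, chosen by symbol from the 31053 genes of the count matrices: the receptors Notch1, Notch2 and Notch3, the ligand Jag1, the transcriptional effectors Hes1, Hes6, Hey1, Hey2 and Heyl, and the feedback inhibitor Nrarp. They were measured by droplet-based single-cell RNA-seq of SN4741, a mouse neural precursor line of wild-type genotype per the labels. Of the 8 libraries, 4 came from cells grown at 37 °C in medium with 10% serum and 4 from cells held for 48 hours at 39 °C with 0.5% serum, so temperature and serum cannot be told apart. The study describes SN4741 as 1 line, reported to be clonal, made from embryonic substantia nigra with a temperature-sensitive SV40 T antigen under the tyrosine hydroxylase promoter, a transgene that cells of both temperatures carry, and it found the line's karyotype to be unstable. The labels do not say whether the 4 libraries of a temperature came from separate cultures, so the spread between them may be technical. After filtering, 18351 of 19125 cells were kept, 985 to 3494 per library, with 17166686 to 29633818 unique molecular identifiers (UMIs, each counting 1 captured transcript molecule).

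Notch receptors are cleaved when a ligand of the Jagged or Delta families on a neighbouring cell binds them, and the freed intracellular domain enters the nucleus, where it joins the DNA-binding protein RBPJ and turns on target genes. In the embryonic brain this signal keeps progenitors undifferentiated: the induced HES and HEY repressors hold down the proneural factors that would start neuronal differentiation. Hes6 is an exception among them, since it opposes Hes1 and favours differentiation, and Nrarp, itself a Notch target, destabilises the active complex.

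The labelled cell type was checked against marker genes. Of 8 neural progenitor markers, Nes, Vim and Sox2 were at 1 CPM (count per 1000000 counts) or more, whereas Sox1, Pax6, Fabp7 and Prom1 were near 0. The summed level of the progenitor markers was 5727 to 6120 CPM at 37 °C and 5185 to 5652 CPM at 39 °C, most of it Vim. Nes, an intermediate filament gene of progenitors, fell from 467 ± 54.2 to 108 ± 6.36 CPM (log2 difference -2.11 ± 0.07, edgeR adjusted p = 5.80e-15), and Sox2, a progenitor transcription factor, rose from 55.4 ± 2.23 to 76.5 ± 3.25 CPM (0.47 ± 0.05, edgeR adjusted p = 5.33e-08). Of 9 neuronal markers, Tubb3, Map2 and Stmn2 reached that level, and Dcx and Elavl4 had no UMI in any library. The neuronal markers summed to 164 to 197 CPM at 37 °C and 77.3 to 97.5 CPM at 39 °C. Of 7 mesenchymal markers, 4 reached 1 CPM, with a summed level of 1756 to 1798 CPM at 37 °C and 834 to 864 CPM at 39 °C. They did not all fall. Among cells thinned to 5000 UMIs each, Col1a1 had a UMI in 94.5% at 37 °C and 81.1% at 39 °C. For Col1a2 the shares were 84.1% and 44.4%, and for Col3a1 4.46% and 0.469%. Twist1 went the other way, with 24.6% and 32.2%. Of 5 mural markers 2 reached it (97.9 to 109.9 CPM in sum at 37 °C and 101 to 104 CPM at 39 °C, Kcnj8 at 0), and of 5 immune markers 2 did (16.4 to 19.2 and 27.9 to 35.5 CPM). Of 8 glial markers 3 reached it (18.1 to 24.3 and 19.5 to 22.1 CPM, Mog and Sox10 at 0), and of 5 endothelial markers none did, with Cdh5 and Cldn5 at 0. The part of these markers in the results on the Notch genes was not tested.

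The DNA before the start sites is shown for 5 genes: Notch1, Notch3 and Hes6, which had the largest log2 differences among the 10 genes in all cells, and Nrarp and Hey2, textbook Notch targets that were not higher. Of the 10 genes, 7 had a start in the RefSeq table of GRCm38.p6 (all but Hes1, Hey1 and Heyl), with 8 windows of 250 bases before a start in all, since Hes6 has 2 starts. Each sequence is given 5′ to 3′ on the gene's strand and ends at the base before the start. Capitals mark matches to the core of the RBPJ motif (TGGGAA), to the E-box bound by HEY proteins (CACGTG) and to the N-box bound by HES proteins (CACNAG). Both strands were searched, so that TTCCCA and CTNGTG are matches as well, and no matches overlapped each other. The Notch1 window is chr2:26503823-26504072 on the minus strand, Notch3 chr17:32166891-32167140 (minus), Hes6 chr1:91414039-91414288 (minus, first start), Nrarp chr2:25180508-25180757 (plus) and Hey2 chr10:30842784-30843033 (minus). Against GENCODE M21, the Notch1 window lies inside a longer model of the gene, the Hey2 window overlaps the first bases of its gene model, and the others lie outside their genes.
Notch1: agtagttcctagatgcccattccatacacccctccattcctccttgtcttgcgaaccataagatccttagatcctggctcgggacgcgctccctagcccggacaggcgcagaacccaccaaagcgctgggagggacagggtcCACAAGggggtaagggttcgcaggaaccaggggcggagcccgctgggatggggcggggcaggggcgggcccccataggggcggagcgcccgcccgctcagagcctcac
Notch3: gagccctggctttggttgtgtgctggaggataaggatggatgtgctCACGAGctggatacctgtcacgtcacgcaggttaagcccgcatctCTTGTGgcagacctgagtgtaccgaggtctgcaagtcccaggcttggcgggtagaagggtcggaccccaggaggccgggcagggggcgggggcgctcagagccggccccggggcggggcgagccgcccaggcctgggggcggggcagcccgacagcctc
Hes6: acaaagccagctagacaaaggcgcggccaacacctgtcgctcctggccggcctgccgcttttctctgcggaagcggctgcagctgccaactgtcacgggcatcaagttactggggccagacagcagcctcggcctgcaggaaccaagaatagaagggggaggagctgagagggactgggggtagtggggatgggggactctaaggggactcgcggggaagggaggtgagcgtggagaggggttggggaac
Nrarp: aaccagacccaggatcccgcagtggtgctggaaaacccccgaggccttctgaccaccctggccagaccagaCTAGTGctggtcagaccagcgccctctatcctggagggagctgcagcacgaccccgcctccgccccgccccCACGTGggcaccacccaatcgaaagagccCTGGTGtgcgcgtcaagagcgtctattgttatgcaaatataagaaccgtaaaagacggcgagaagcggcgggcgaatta
Hey2: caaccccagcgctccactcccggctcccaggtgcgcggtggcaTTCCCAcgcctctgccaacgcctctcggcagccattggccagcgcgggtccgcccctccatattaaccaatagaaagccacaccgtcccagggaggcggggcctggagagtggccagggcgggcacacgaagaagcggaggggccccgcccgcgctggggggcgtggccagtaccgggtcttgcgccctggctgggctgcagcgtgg

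The RBPJ core was present only in the Hey2 window, 207 bases before the start, among these 8 windows, and in 21.6% of all 32851 RefSeq windows of this length. Nrarp held the E-box 108 bases before its start, a match found in 6.02% of all windows, together with N-box matches 179 and 79 bases before it. Notch1 held 1 N-box match (CACAAG, 108 bases before the start) and Notch3 held 2 (CACGAG at 204 and CTTGTG at 159), where 36.7% of all windows had at least 1. The first Hes6 start and the Jag1 start had no match, the second Hes6 start had an N-box at 237 bases and Notch2 had one at 247. These are matches of letters, which by themselves show neither a bound site nor a cause of any difference below.

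Across all kept cells, the receptors Notch1 and Notch3 and the effector Hes6 stood roughly 1.8 to 2.1 times as high at 39 °C as at 37 °C, Hes1 1.63 times and Jag1 1.32 times. Notch2 was 1.22 times as high and Nrarp fell to 0.885 times its 37 °C level. UMIs were summed over the cells of each library, and edgeR's quasi-likelihood test compared the temperatures over all 15810 genes averaging 1 UMI or more per library, with Benjamini-Hochberg adjustment. Of the 10 genes, 9 met that count and Heyl did not. At an adjusted p under 0.05, 6 were higher at 39 °C (of all genes tested, 31.5% were) and 1 was lower (30.5%). The temperatures did not overlap for 5 of the 9, against 56.7% of all genes, and 0 passed the study's stricter limits for bulk data (an adjusted p under 0.01 with a log2 difference beyond 1.5 either way), against 5.83% of all. By DESeq2, the counts were likewise 6 and 1. The median log2 change of the 9 was 0.40, beside 0.02 over all genes tested, and the median size 0.40, beside 0.42.

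Notch1 (ENSMUSG00000026923, chr2:26457903-26516663, minus strand, GRCm38), the receptor with the broadest role in neural progenitors, was at 249, 208, 217 and 204 CPM in 37 °C replicates 1 to 4 and at 453, 466, 475 and 479 CPM in 39 °C replicates 1 to 4. All 39 °C libraries lay above all 37 °C libraries. The means, 219 ± 20.4 and 468 ± 11.9 CPM (SD, n = 4), stood a log2 fold change of 1.09 ± 0.06 apart (± SE, by edgeR with adjusted p = 5.86e-12).

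Notch3 (ENSMUSG00000038146, chr17:32120820-32166852, minus strand), a receptor best known from vascular smooth muscle and also found in progenitors, was at 47.6, 42.4, 43.3 and 42.5 CPM at 37 °C and at 98.9, 93.3, 90.2 and 93.8 CPM at 39 °C. The temperatures did not overlap here either. The means of 44.0 ± 2.47 and 94.0 ± 3.61 CPM (SD, n = 4) differed by 1.10 ± 0.05 on the log2 scale (edgeR adjusted p = 4.27e-13).

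Notch2 (ENSMUSG00000027878, chr3:98013527-98150361, plus strand) was at 17.2, 17.6, 22.3 and 16.6 CPM at 37 °C and at 20.7, 21.2, 21.9 and 26.0 CPM at 39 °C. The groups overlapped, because 37 °C replicate 3 lay above 39 °C replicates 1 to 3. Its rise of 0.29 ± 0.09 on the log2 scale passed (edgeR adjusted p = 6.96e-03), but not once each cell was thinned to 5000 UMIs (0.18, adjusted p = 0.131), nor without 37 °C replicate 1 (0.23, adjusted p = 0.0516) or 39 °C replicate 4 (0.20, adjusted p = 0.0504).

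Jag1 (ENSMUSG00000027276, chr2:137081456-137116644, minus strand), a ligand that activates receptors on neighbouring cells, was at 23.5, 20.9, 22.5 and 20.7 CPM at 37 °C and at 26.0, 26.4, 31.7 and 30.6 CPM at 39 °C. All 39 °C libraries were above all 37 °C libraries. The log2 difference was 0.40 ± 0.07 (edgeR adjusted p = 3.76e-05, means 21.9 ± 1.35 and 28.7 ± 2.91 CPM).

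**Figure D1:**
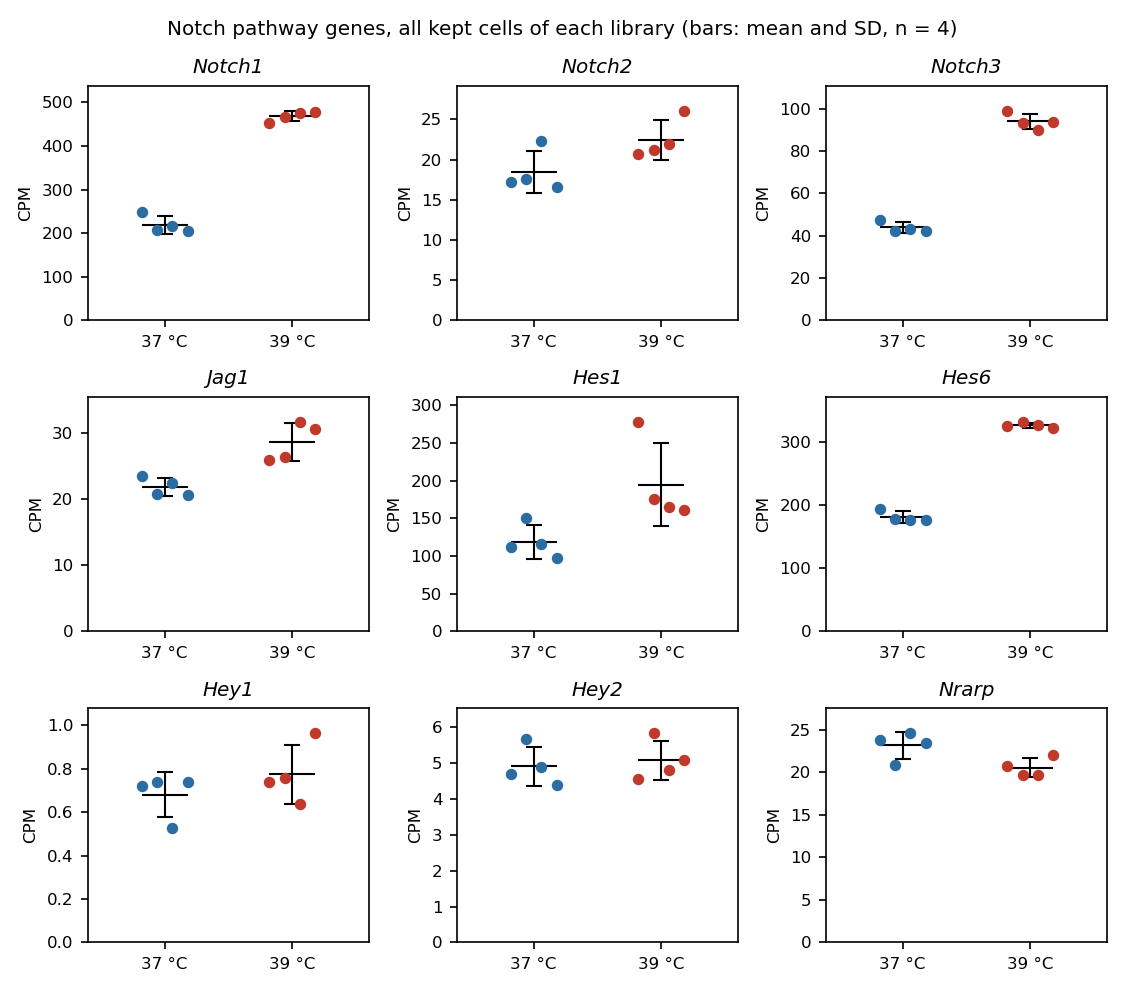
Level of each tested Notch gene (y axis, CPM, with totals scaled by TMM factors) in the 4 libraries at 37 °C (blue) and the 4 at 39 °C (red), replicates 1 to 4 from left to right, with the mean and SD as bars. Notch1, Notch3, Jag1, Hes1 and Hes6 show no overlap between temperatures, and the highest Hes1 point is 39 °C replicate 1 at 278 CPM.

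Hes1 (ENSMUSG00000022528, chr16:30064384-30067796, plus strand), the repressor that holds progenitors undifferentiated, was at 111, 151, 116 and 97.7 CPM at 37 °C and at 278, 176, 164 and 161 CPM at 39 °C. The groups did not overlap, but 39 °C replicate 1 stood far above the other libraries. The means were 119 ± 22.5 and 195 ± 55.6 CPM (SD, n = 4) and the log2 difference 0.71 ± 0.14 (edgeR adjusted p = 2.02e-04). Without 39 °C replicate 1 it was 0.48 (adjusted p = 5.04e-05). That library also had the fewest kept cells (985) and the highest median depth, 16665 UMIs per cell, against 6676 to 15413 in the other 7, and the part of depth in its Hes1 level was not tested beyond the thinned shares given further on.

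Hes6 (ENSMUSG00000067071, chr1:91411483-91414038, minus strand), the antagonist of Hes1, was at 195, 179, 176 and 176 CPM at 37 °C and at 326, 332, 327 and 323 CPM at 39 °C. The 39 °C libraries were close to each other and all above those at 37 °C. The log2 difference was 0.85 ± 0.05 (edgeR adjusted p = 1.08e-11, means 181 ± 9.16 and 327 ± 3.91 CPM). Hes1 and Hes6, whose products act against each other, were thus both higher at 39 °C.

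The HEY genes, which encode repressors related to HES proteins, were scarce. Hey2 (ENSMUSG00000019789, chr10:30832359-30842801, minus strand) had 4.90 ± 0.541 CPM at 37 °C, against 5.07 ± 0.555 CPM at 39 °C (log2 difference 0.06 ± 0.10, edgeR adjusted p = 0.640). Hey1 (ENSMUSG00000040289, chr3:8663359-8667256, minus strand) had 76 UMIs at each temperature, a pooled level of 0.671 CPM (95% exact Poisson interval 0.529 to 0.840) at 37 °C and 0.781 CPM (0.615 to 0.978) at 39 °C. Its log2 difference of 0.19 ± 0.23 did not pass (edgeR adjusted p = 0.500). Heyl (ENSMUSG00000032744, chr4:123233556-123249875, plus strand) had 2 UMIs at 37 °C and 1 at 39 °C, which is too few for a test. These intervals cover counting error only.

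Nrarp (ENSMUSG00000078202, chr2:25180758-25183339, plus strand) was at 23.8, 20.9, 24.6 and 23.5 CPM at 37 °C and at 20.8, 19.7, 19.7 and 22.01 CPM at 39 °C, with overlap between the groups. It was the 1 gene of the set that fell, by 0.18 ± 0.06 on the log2 scale (edgeR adjusted p = 0.0157). The call was lost when library totals alone set the scale (adjusted p = 0.0526), when cells were thinned (0.0698), and without 37 °C replicate 3, 39 °C replicate 2 or 39 °C replicate 3 (0.0509, 0.0534 and 0.0553).

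Cells assigned to G1 made up 24.1% ± 3.41 at 37 °C and 84.3% ± 1.22 at 39 °C (SD, n = 4), so a sum over all cells mixes phases in different proportions. The comparison was therefore repeated within cells assigned to G1, S and G2M from Seurat's phase lists, which hold 0 of the 10 genes. In G1 cells 4 of the 9 tested genes were higher at 39 °C (24.8% of all genes tested in G1) and 0 were lower (22.4%). These were Notch1, Notch3, Hes1 and Hes6. In G1 the median log2 change of the 9 was 0.11, beside 0.04 over all genes tested there. Their median size was 0.13, beside 0.33.

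Notch1 and Notch3 were higher at 39 °C within G1 as well. Notch1 was at 310, 264, 287 and 249 CPM in the G1 cells of the 37 °C libraries and at 481, 489, 504 and 508 CPM in those of the 39 °C libraries, with no overlap. Its log2 difference was 0.84 ± 0.06 (edgeR adjusted p = 1.28e-10). Notch3 rose from 55.4 ± 4.44 to 99.9 ± 3.63 CPM, or 0.84 ± 0.06 on the log2 scale (edgeR adjusted p = 6.97e-11).

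Hes1 and Hes6 had smaller log2 differences in G1 than across all cells, a contrast that was not tested. The receptors did too, with Notch1 at 1.09 across all cells and 0.84 in G1, and Notch3 at 1.10 and 0.84. Hes6 went from 267 ± 14.2 CPM at 37 °C to 351 ± 3.41 CPM at 39 °C without overlap, with a log2 difference of 0.39 ± 0.05 (edgeR adjusted p = 1.22e-06). Hes1 was at 139, 178, 143 and 131 CPM and at 295, 189, 175 and 170 CPM, so that the groups overlapped. Its log2 difference was 0.48 ± 0.13 (edgeR adjusted p = 2.73e-03), 0.27 without 39 °C replicate 1 (edgeR adjusted p = 1.16e-03), and it did not pass by DESeq2 (adjusted p = 0.0665).

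Jag1 did not pass within G1: its mean was 34.5 ± 2.20 CPM at 37 °C, and at 39 °C it was 31.3 ± 2.82 CPM (log2 difference -0.13 ± 0.07, edgeR adjusted p = 0.158), whereas it was higher across all cells. Nrarp, lower across all cells, had a log2 difference of 0.09 ± 0.09 in G1 (edgeR adjusted p = 0.447). Notch2 was at 22.2 ± 4.07 and 23.6 ± 2.90 CPM (log2 difference 0.09 ± 0.10, edgeR adjusted p = 0.500). Hey2 and Hey1 did not pass either (adjusted p = 0.609 and 0.847 by edgeR).

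Among S cells 4 genes were higher at 39 °C (20.1% of all genes tested in S) and 1 was lower (23.4%). Notch1 had a log2 difference of 0.92 ± 0.06, Notch3 of 0.84 ± 0.08 and Hes6 of 0.64 ± 0.06 (edgeR adjusted p = 6.69e-13, 4.10e-10 and 8.66e-10), each without overlap. Hes1 passed with 0.42 ± 0.13 (edgeR adjusted p = 9.72e-03), and not without 39 °C replicate 1 (0.18, adjusted p = 0.160) or by DESeq2 (adjusted p = 0.158). The gene that fell was Hey2, at 6.63, 7.08, 6.21 and 5.25 CPM at 37 °C and at 4.46, 3.26, 2.57 and 3.28 CPM at 39 °C. These values rest on 276 and 35 UMIs and did not overlap (log2 difference -0.91 ± 0.24, edgeR adjusted p = 2.22e-03). Nrarp did not pass in S cells (0.24 ± 0.10, edgeR adjusted p = 0.0583), but did when scaled by RLE, by the upper quartile or by library totals (edgeR adjusted p = 0.0418, 0.0268 and 9.78e-03).

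Among G2M cells, of which the 39 °C libraries held 466 and the 37 °C libraries 3045, 2 genes were higher at 39 °C (13.2% of all genes tested in G2M) and 0 were lower (16.5%). They were Notch1 (0.75 ± 0.09, edgeR adjusted p = 1.29e-08) and Notch3 (0.75 ± 0.10, edgeR adjusted p = 3.82e-07). Hes1 had a log2 difference of 0.01 ± 0.13 and Hes6 of 0.13 ± 0.09 (edgeR adjusted p = 0.961 and 0.308). Without 39 °C replicate 1, Hes6 passed in G2M cells with 0.21 (edgeR adjusted p = 0.0301). Jag1 rested on 1, 9, 28 and 32 UMIs in the G2M cells of 39 °C replicates 1 to 4, and its log2 difference of -0.19 ± 0.24 did not pass (edgeR adjusted p = 0.601).

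**Figure D2:**
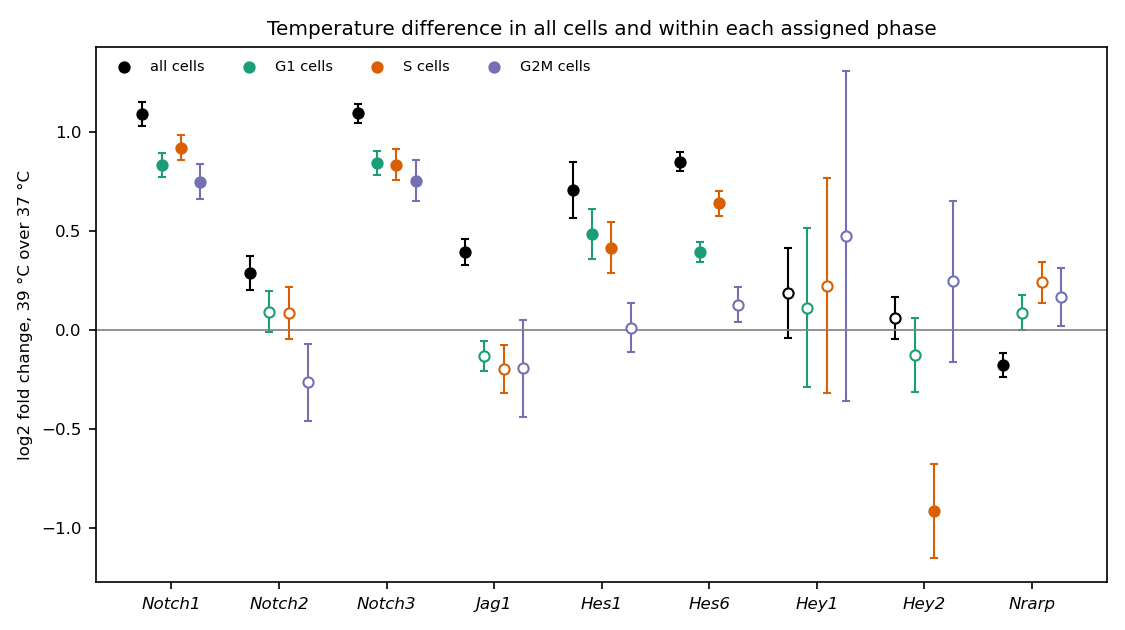
Log2 fold change of 39 °C over 37 °C (y axis, with SE as bars) for the 9 tested genes (x axis) in all cells and in cells assigned to G1, S or G2M, with filled points for an edgeR adjusted p under 0.05. Notch1 and Notch3 stay between 0.75 and 0.92 within each phase, while Jag1 is at 0.40 in all cells and at -0.13, -0.20 and -0.19 in the phases.

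These values depend on how phases were assigned. With phases scored within each library, in place of over all cells together, 4 genes were higher in G1 cells, where 28.1% of all genes were, and 0 were lower (26.3%). In S cells 6 were higher (28.5% of all genes) and 1 lower (28.7%), and in G2M cells 6 were higher (25.3%) and 1 lower (27.5%). Jag1 then had a log2 difference of 0.06 in G1 (adjusted p = 0.500), 0.43 in S (adjusted p = 6.20e-04) and 0.59 in G2M cells (adjusted p = 7.88e-04, all by edgeR). Hes1 was then higher in G2M cells as well, with 0.52 (edgeR adjusted p = 1.98e-03), and Hes6 with 0.66 (edgeR adjusted p = 1.03e-09). Values that passed under both assignments also moved: Hes6 had 0.69 in G1 and 0.99 in S cells, Hes1 0.74 in S cells and Notch1 1.16 in G2M cells with phases scored within each library. Notch1 and Notch3 were higher in all 3 phases under both assignments.

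Whether the temperature difference itself varied with phase was tested in 1 edgeR model over 24 sums, 1 per library and phase, with the library as a block. It varied for 2 of the 9 genes, Hes1 (adjusted p = 0.0135) and Hes6 (adjusted p = 1.72e-06), against 13.3% of the 14172 genes tested. For Hes1 the difference was smaller in G2M than in G1 by 0.33 ± 0.09 on the log2 scale (edgeR adjusted p = 9.93e-03). For Hes6 it was larger in S than in G1 by 0.28 ± 0.06 (edgeR adjusted p = 2.67e-04), and the G2M term of -0.22 ± 0.07 did not pass (edgeR adjusted p = 0.0522). No such variation was detected for Notch1 (adjusted p = 0.0977) or Notch3 (0.906). The count was 5 with phases scored within each library, where it was 27% of all genes, 1 with thinned cells (6.1%), and 1 without 39 °C replicate 3 (10.3%).

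At a given temperature, most of the genes differed between phases: 8 of 9 at 37 °C (61.5% of all genes) and 8 of 9 at 39 °C (43.3%), with Hey1 the exception at both. The levels by phase given next come from that model, in which 1 TMM scaling covered the 24 sums, so they differ slightly from levels scaled within a phase. Jag1 was highest in G1 cells, at 35.2 ± 2.24 CPM at 37 °C, against 19.9 ± 1.72 in S and 17.6 ± 3.35 in G2M. Its G2M level was below its G1 level by a log2 difference of -0.98 ± 0.09 (edgeR adjusted p = 6.84e-16), and at 39 °C the difference was -1.05 ± 0.18 (edgeR adjusted p = 2.58e-06). Hes6 was also highest in G1, at 272 ± 14.5 CPM at 37 °C, against 150 ± 11.9 in S and 172 ± 6.53 in G2M.

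Nrarp had the opposite order. Its level at 37 °C was 18.6 ± 2.79 CPM in G1, 22.9 ± 1.69 in S and 27.0 ± 2.11 in G2M, and at 39 °C it was 19.3 ± 0.926, 27.2 ± 2.80 and 28.9 ± 7.003 CPM. It was higher in G2M than in G1 by 0.54 ± 0.08 at 37 °C and 0.65 ± 0.14 at 39 °C on the log2 scale (edgeR adjusted p = 8.52e-08 and 1.23e-04). Nrarp was the 1 gene of the set that passed as above its G1 level in G2M cells, as did 20.8% of all genes at 37 °C and 12.5% at 39 °C. Hey1 had 0.20 ± 0.79 at 39 °C, which did not pass (edgeR adjusted p = 0.893).

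Notch1 and Notch3 were lowest in S cells. Notch1 was below its G1 level by a log2 difference of -0.70 ± 0.04 in S and -0.23 ± 0.03 in G2M at 37 °C (edgeR adjusted p = 6.16e-29 and 3.97e-08). At 39 °C the values were -0.58 ± 0.04 and -0.27 ± 0.04 (edgeR adjusted p = 8.77e-24 and 3.63e-07). Notch3 was at -0.69 ± 0.06 in S and -0.24 ± 0.06 in G2M at 37 °C, close to Notch1. Hes1 was at -0.51 ± 0.05 in S and -0.33 ± 0.05 in G2M at 37 °C, and at -0.52 ± 0.05 and -0.66 ± 0.07 at 39 °C.

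**Figure D3:**
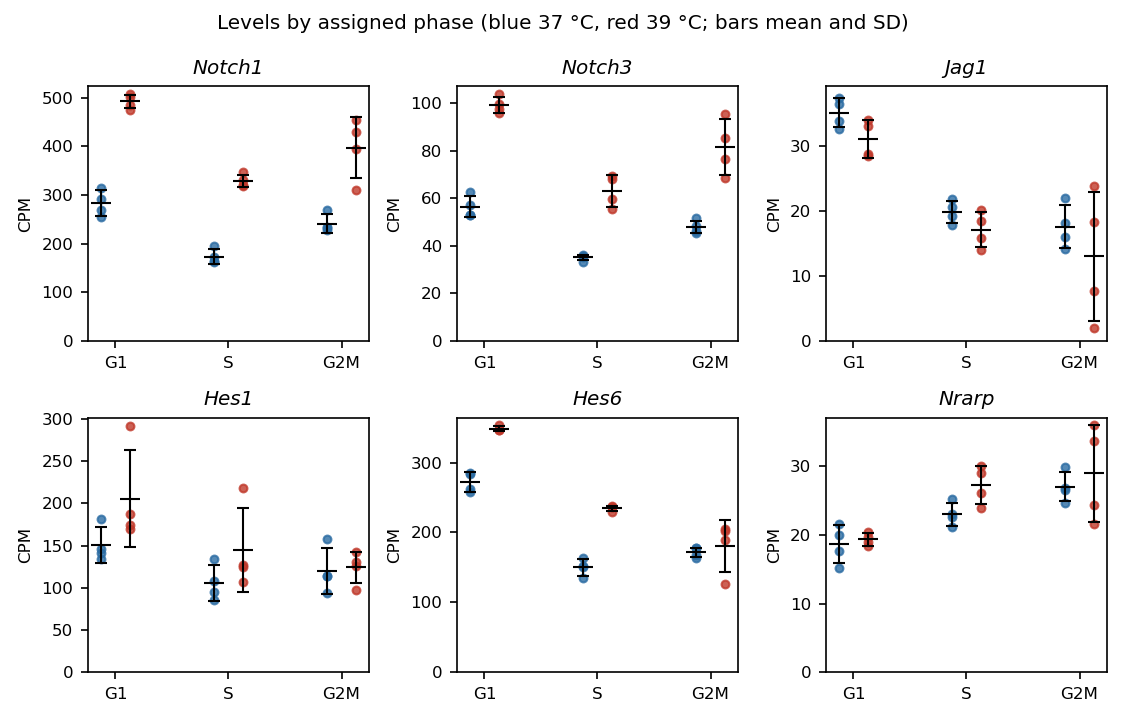
Level (y axis, CPM) of 6 of the genes in cells assigned to G1, S and G2M (x axis), with 1 point per library, 37 °C in blue and 39 °C in red, and the mean and SD as bars. Jag1 falls from 35.2 CPM in G1 to 17.6 CPM in G2M at 37 °C while Nrarp goes from 18.6 to 27.0 CPM, and Notch1 is higher at 39 °C in each phase.

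Across single cells, the share with at least 1 UMI of a gene was read after each cell was thinned to 5000 UMIs, which left out 668 shallower cells at 37 °C and 1668 at 39 °C. Notch1 was found in 54.5% ± 3.22 of cells at 37 °C and 79.3% ± 1.20 at 39 °C (SD over 4 libraries), Hes6 in 51.4% ± 1.58 and 70.9% ± 1.51, and Notch3 in 19.1% ± 1.58 and 36.0% ± 2.33. For each of these, every 39 °C library was above every 37 °C library. Unthinned, the Notch1 shares were 75.5% ± 4.29 and 88.5% ± 5.07, those of Hes6 74.8% ± 4.53 and 82.1% ± 5.53, and those of Notch3 39.2% ± 4.82 and 55.7% ± 12.4.

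Hes1 was found in 38.0% ± 4.21 and 52.6% ± 5.48 of thinned cells (unthinned 60.0% ± 8.48 and 67.6% ± 12.6). 39 °C replicate 1 was again the highest library, with 60.7% where the lowest at 39 °C had 49.2%, so it stood apart at equal depth as well. Jag1 was found in 9.57% ± 0.584 and 12.4% ± 1.33 of cells, Notch2 in 8.97% ± 1.65 and 10.1% ± 0.768, and Nrarp in 10.5% ± 1.04 and 9.18% ± 0.835. Unthinned, Jag1 was in 21.5% ± 3.50 and 22.8% ± 5.52, Notch2 in 20.9% ± 5.75 and 21.0% ± 5.59, and Nrarp in 23.7% ± 3.72 and 18.4% ± 6.11.

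The rarest genes were Hey2 with 2.16% ± 0.453 and 2.43% ± 0.358 of thinned cells, Hey1 with 0.361% ± 0.103 and 0.484% ± 0.223, and Heyl with 0.0147% ± 0.0294 at 37 °C and 0 of 8133 cells at 39 °C. That 0 allows a share of up to 0.0369% of cells with a UMI at 5000 UMIs per cell, for counting error only and with the cells of 4 libraries taken as 1 sample, and sets no limit on cells that express the gene. The libraries hold 1 cell line, so no second cell type gave the level of free RNA. Endothelial markers differed among themselves. Pecam1 had a UMI in 0.170% ± 0.240 of thinned cells at 37 °C (0.0417% to 0.529% over libraries) and 0.351% ± 0.118 at 39 °C. Cdh5 and Cldn5 were found in 0% at both temperatures. In 1 line such counts do not set a level of free RNA. Whether the Hey1 shares exceed that level was not tested, and no expression is read from them.

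**Figure D4:**
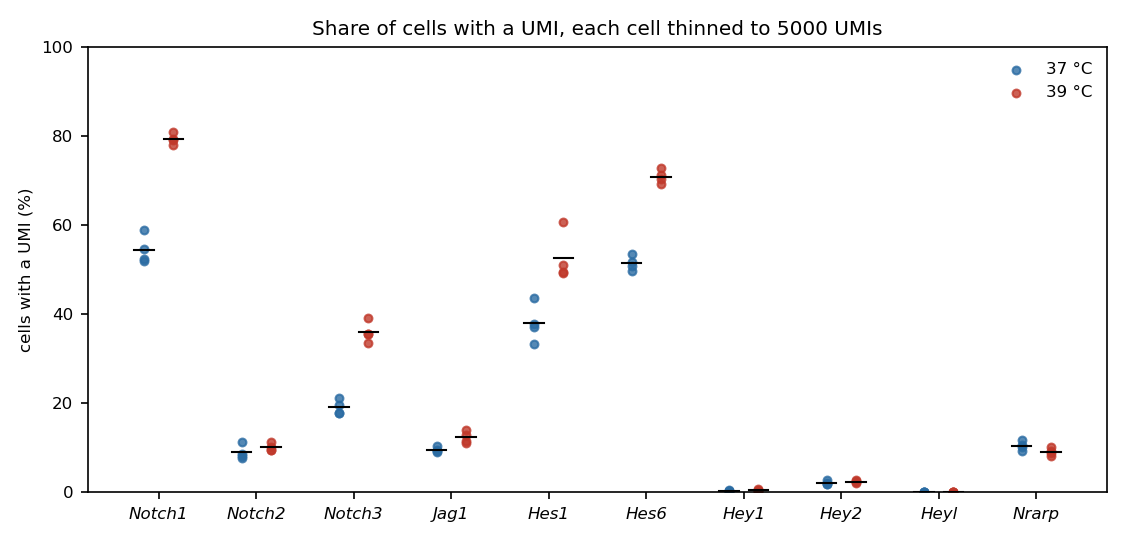
Share of cells with at least 1 UMI (y axis, %) for each of the 10 genes (x axis) after thinning every cell to 5000 UMIs, with 1 point per library, 37 °C in blue and 39 °C in red, and the mean as a line. Notch1 goes from 54.5% to 79.3% and Hes6 from 51.4% to 70.9%, while Nrarp is at 10.5% and 9.18%.

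A thinned cell held a median of 2 of the 10 genes at 37 °C and 3 at 39 °C in every library of each temperature. Cells with none of the 10 made up 10.5% to 13.3% of a library at 37 °C and 2.32% to 2.64% at 39 °C. Any of the 3 receptors was found in 61.8% to 68.7% of cells at 37 °C and 85.6% to 87.2% at 39 °C, and any of the 5 HES and HEY genes in 65.3% to 72.4% and 84.1% to 86.1%. A receptor and Jag1 together, in the same cell, were found in 6.13% to 7.42% and 9.90% to 12.6%. If the genes were found independently of each other these shares would be 5.60% to 6.88% and 9.48% to 12.03%, a mean of 6.20% at 37 °C and 10.7% at 39 °C, beside the observed means of 6.79% and 11.2%.

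Counts of the abundant genes had a variance between cells above their mean, where random sampling alone gives the same value for both. In thinned cells the variance over the mean was 1.77 to 2.02 for Notch1 over the 8 libraries, 1.67 to 1.92 for Hes6 and 1.39 to 2.19 for Hes1. It was 1.08 to 1.20 for Notch3 and 1.00 to 1.11 for Notch2. These values were taken over cells of all phases. Within G1 cells the variance over the mean was 1.69 to 2.24 for Notch1, 1.68 to 1.93 for Hes6 and 1.40 to 2.15 for Hes1. The part of phase in these values was not tested.

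The genes were weakly related across cells. Pearson's r was taken within each library over log2(count + 1) of thinned cells and averaged over the 4 libraries of a temperature, where cells share a library and a depth. It was 0.137 at 37 °C and 0.141 at 39 °C for Notch1 with Notch3, 0.178 and 0.0408 for Notch1 with Hes6 (0.166 and 0.0153 in G1 cells), and 0.108 and 0.117 for Hes1 with Hes6. No other pair reached a mean r of 0.1. In counts this sparse such values describe the cells and no relation is read from them.

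Among all genes, those most like a member across cells were sought for the 4 genes found in at least 20% of thinned cells, Notch1, Notch3, Hes1 and Hes6, and named at a mean r of at least 0.2 over the 8 libraries. The closest to Notch1 was Cdkn1a, the cyclin-dependent kinase inhibitor p21, with a mean r of 0.320 (0.260 to 0.379 over libraries) and of 0.323 in G1 cells. Pmm1, a phosphomannomutase, followed at 0.295 and Pltp, a phospholipid transfer protein, at 0.289, with 0.307 and 0.314 in G1 cells. For Hes6 it was Col8a1, a collagen chain, at 0.208 (0.191 in G1 cells). No gene reached 0.2 for Notch3 or Hes1.

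The other genes of the pathway were taken from a list of 65, of which 59 met the count minimum. Of these 23 were higher and 13 lower at 39 °C, beside the 31.5% and 30.5% of all genes. Their median log2 difference was 0.10. In G1 cells 16 were higher and 13 lower of 57, beside 24.8% and 22.4% of all genes there. Of the 36, 24 passed there in the same direction, 14 higher and 10 lower, as did 64.2% of all the genes that passed in all cells. Only Jag2 and Neurl1b passed the stricter limits in all cells, 2 of 59, against 5.83% of all genes.

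Among the other ligands, Jag2 rose the most. From 13.5 ± 2.28 CPM at 37 °C it went to 50.3 ± 3.07 CPM at 39 °C, a 3.70-fold difference without overlap (log2 difference 1.89 ± 0.08, edgeR adjusted p = 2.63e-13). Within G1 cells it went from 15.9 ± 2.42 to 51.7 ± 3.08 CPM (log2 difference 1.68 ± 0.08, edgeR adjusted p = 2.93e-13). It was found in 5.92% ± 0.909 and 19.5% ± 1.65 of thinned cells. Dlk2, which lacks the receptor-activating domain of the Delta ligands, was at 22.7 ± 2.03 and 22.3 ± 1.90 CPM (log2 difference -0.04 ± 0.07, edgeR adjusted p = 0.680).

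The Delta ligands themselves were close to absent. Dll1 had 6 UMIs at 37 °C and 8 at 39 °C over all kept cells, Dll3 had 26 and 33, and Dll4 0 and 2. Dlk1, a relative of Dlk2 and not counted here as a Delta ligand, had 2 and 0. A count of 0 allows up to 0.0265 CPM at 37 °C and 0.0308 CPM at 39 °C (3 counts, counting error only). The receptor Notch4 had 47 and 44 UMIs (log2 difference 0.10 ± 0.30, edgeR adjusted p = 0.806). Hes5, a main Notch target of neural progenitors, and Hes3 had 0 UMIs at both temperatures. Of the proneural genes, Neurog2 had 1 and 2 UMIs, while Neurog1 and Neurod1 had 0, so none of these could be tested.

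The counts by role that follow stand beside the same 31.5% higher and 30.5% lower over all genes, and with 4 to 14 genes a role nothing particular to a role is read from them. Genes that modify receptors and ligands moved in both directions. Lfng, a glycosyltransferase that tunes receptors toward Delta ligands, fell from 6.599 ± 0.280 to 3.64 ± 0.549 CPM (log2 difference -0.88 ± 0.10, edgeR adjusted p = 2.71e-07), and of the 4 glycosylation genes tested 1 was higher and 1 lower. Of the 4 genes of ligand endocytosis 1 was higher and 2 lower. The ubiquitin ligase Neurl1b was at 2.60 ± 0.249 and 0.560 ± 0.172 CPM (-2.23 ± 0.19, edgeR adjusted p = 6.25e-09), but in G1 cells at 0.445 ± 0.366 and 0.270 ± 0.1004 CPM (-0.69 ± 0.61, edgeR adjusted p = 0.378). Its relative Neurl1a had a log2 difference of -0.76 ± 0.13 and Mib2 one of 0.51 ± 0.07.

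Of the 10 protease genes, which cut the receptor, 5 were higher and 1 lower. Psen2, the catalytic subunit of gamma-secretase, had a log2 difference of 0.60 ± 0.08 and Furin, which cuts the receptor precursor, one of 0.42 ± 0.06. Aph1c had 1.00 ± 0.15, but its near-identical copy Aph1b can share reads with it, so its level is uncertain. Of 8 genes of receptor trafficking and turnover 3 were higher and 2 lower, among them Fbxw7 (0.43 ± 0.05), whose product marks the active receptor for degradation, Nedd4 (-0.42 ± 0.05) and Dtx4 (-0.39 ± 0.06). These 6 genes were named by a rule that required a difference without overlap between libraries. Of the tested genes, 6 of 10 for proteases and 4 of 8 for trafficking and turnover did not overlap, beside 56.7% of all genes.

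In the nucleus, 3 of 9 activator genes were higher and 2 lower, with the coactivator Maml3 at 8.50 ± 0.658 and 17.4 ± 0.467 CPM (log2 difference 1.02 ± 0.07, edgeR adjusted p = 7.90e-11). Ep300 had 0.46 ± 0.05 and Kat2a -0.54 ± 0.06, and both encode histone acetyltransferases. Of 14 repressor genes 7 were higher and 5 lower. The corepressor Tle1 went from 51.7 ± 2.18 to 104 ± 2.60 CPM (1.01 ± 0.05, edgeR adjusted p = 4.23e-13). Tle4 fell by 1.17 ± 0.27 on 144 and 56 UMIs (edgeR adjusted p = 9.93e-04). Of 5 tested genes listed beside the HES family, 2 were higher, Bhlhe41 (0.67 ± 0.09) and Bhlhe40 (0.36 ± 0.05), neither of which is a HES gene.

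**Figure D5:**
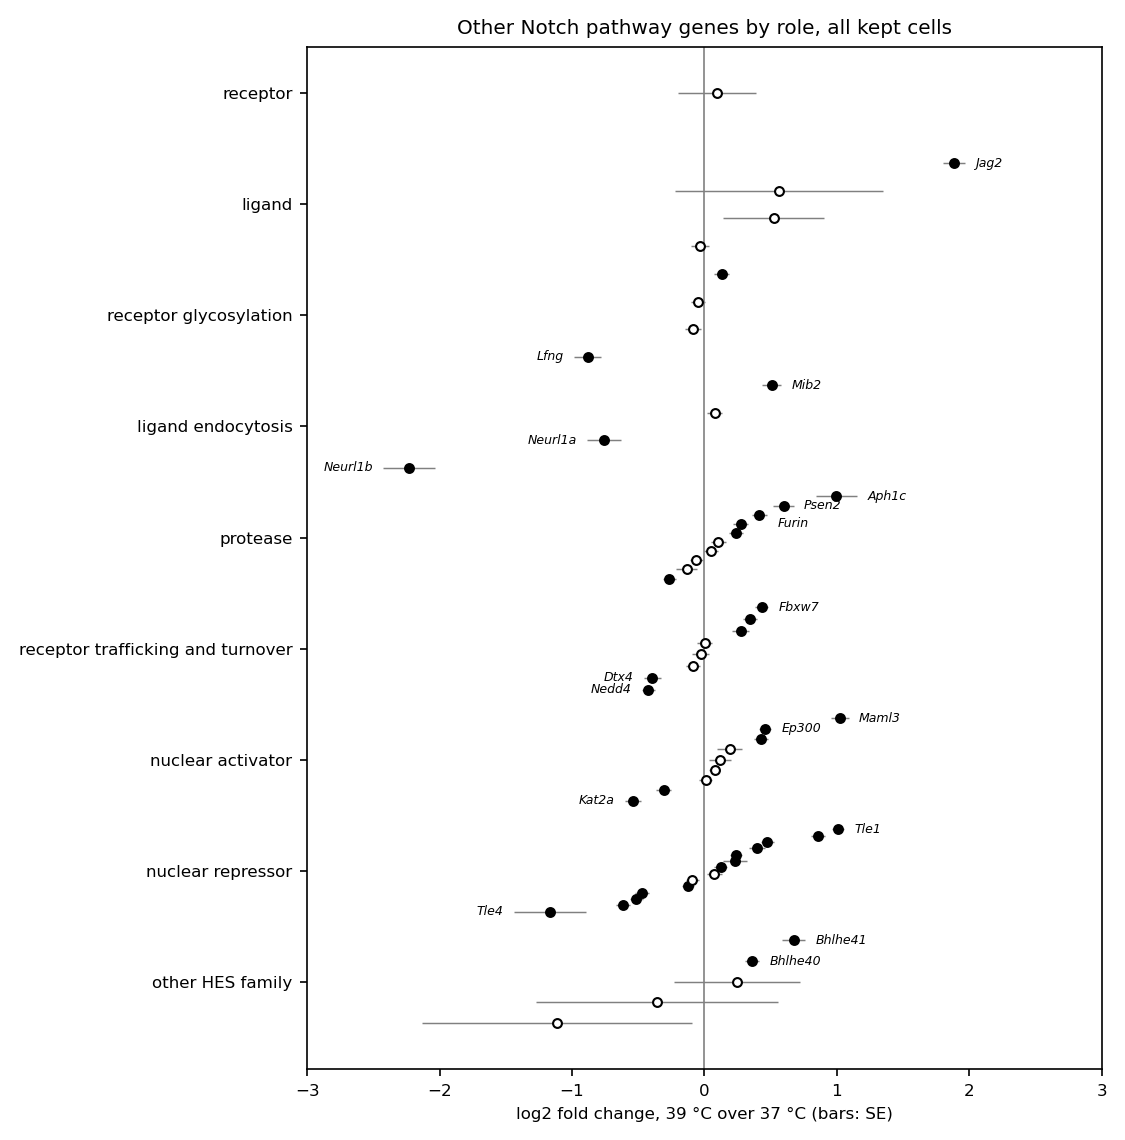
Log2 fold change of 39 °C over 37 °C in all cells (x axis, with SE as bars) for the 59 tested genes of the wider pathway list, grouped by role (y axis), with filled points for an edgeR adjusted p under 0.05. Jag2 lies at 1.89 and Neurl1b at -2.23, and most roles hold filled points on both sides of 0.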

How the data were processed

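Single-cell RNA was measured in 8 libraries. Per the labels and the study's methods, cells were captured with the Chromium 3' V3 kit, and per the submitters' processing notes Cell Ranger 3.0.1 and the mm10 genome were used. The gene annotation release is not given in the sources used here. The authors deposited raw UMI counts per gene and cell, without normalization. Sample titles and treatment labels gave the groups. The 10 genes, the lists and the tests were chosen with earlier results of these data known.

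Kept cells had at most 15% mitochondrial UMIs and 200 to 6000 genes, the study's limits. No doublet caller was run, so doublets were removed only by the upper gene limit. At most 5 barcodes were shared by a pair of libraries, and no pair of replicates agreed within sampling noise (chi-square over its degrees of freedom 2.85 to 21.4). Phases came from CellCycleScoring in Seurat 5.3.0 (42 of 43 S and 52 of 54 G2M genes found).

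UMIs were summed per library, or per library and phase, and tested with edgeR 4.0.16 in R 4.3.3 (TMM factors, glmQLFit, glmQLFTest, Benjamini-Hochberg adjustment over all genes tested). CPM use TMM-scaled totals of tested genes. The pooled CPM of rare genes use plain totals. SEs are derived from the F statistic. Tested on simulated counts in which 200 genes carried a log2 change of 1, the fits recovered 194 in all cells (15829 genes), 195 in G1 (14750 genes), 186 in S (13746 genes), 174 in G2M (13824 genes) and 166 for the temperature by phase terms (14169 genes). In the same order they called 10, 7, 14, 6 and 11 unchanged genes. The changed genes were drawn from well-counted genes, with a fixed low spread between libraries. The recovery therefore does not cover scarce genes such as Hey1. Gene positions are from GENCODE M21 and promoter windows from RefSeq, both on GRCm38. From the wider list, up to 3 genes per role with the largest change among those that passed without overlap were named, plus the ligands and Notch4. Certain genes that this rule or the lists hold are not reported here. Alternatives were other scaling factors, count filters, cell filters, DESeq2 1.42.0, thinning, equal cell numbers, a replicate block, phases scored within each library, and each library left out in turn. Transcripts of the viral T antigen were not analysed here.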

Additional observations from a re-analysis of the deposited data

Results flagged for a closer look

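In 9 of 118 groups of 4 libraries, 1 library lay further from the others than Dixon's 95% limit, which chance alone passes in about 1 of 20 groups. Hes1 was highest in 39 °C replicate 1, with 278 CPM in all cells and 294.7 CPM in G1 cells. Notch2 was highest in 37 °C replicate 3, with 22.3 CPM in all cells and 20.2 CPM in G2M cells. Hes6 was highest in 37 °C replicate 1, with 195 CPM, and Hey1 was lowest in 37 °C replicate 3, with 0.526 CPM. In the wider list, Dlk2 was highest in 39 °C replicate 1, with 25.1 CPM, Maml3 lowest in 37 °C replicate 2, with 7.52 CPM, and Tle4 highest in the same library, with 1.55 CPM.

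The temperature difference of Hes1 varied between phases (edgeR adjusted p = 0.0135 for the joint temperature by phase terms over 24 sums), and so did that of Hes6 (edgeR adjusted p = 1.72e-06). How many genes varied in this way depended on the processing, as given below. Fitted within a phase, Hes1 had log2 differences of 0.48 in G1 and 0.01 in G2M cells. With phases scored within each library, these became 0.65 and 0.52.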

How the results depend on the processing

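Across all cells, 6 of the 10 genes were higher at 39 °C, and 5 to 6 were when a library was left out. The count of lower genes, 1, went to 0 with library totals as the scale and with thinned cells, and was 0 to 1 without a library. In G2M cells the counts of 2 higher and 0 lower became 6 and 1 with phases scored within each library, and 2 to 3 and 0 without a library. In S cells 3 to 5 were higher without a library. The count of genes whose temperature difference varied with phase, 2, became 5 with phases scored within each library and 1 with thinned cells, and was 1 to 3 without a library (1 without 39 °C replicate 3). With phases scored within each library, Jag1 turned from -0.20 to 0.43 in S cells and from -0.19 to 0.59 in G2M cells, Nrarp from 0.24 to -0.060 in S and from 0.17 to -0.24 in G2M cells, Notch2 from -0.27 to 0.18 in G2M, Jag1 from -0.13 to 0.056 in G1 and Hey1 from 0.22 to -0.010 in S cells (log2 fold changes). With thinned cells, Notch2 turned from 0.09 to -0.022 and Hey2 from -0.13 to 0.085 in G1 cells, and with equal cells per library Hey1 turned to -0.077 in all cells. Without a library, values that did not pass spanned both signs for Hey2 in all cells (-0.016 to 0.13) and G1 (-0.30 to 0.071), Hey1 in G1 (-0.10 to 0.51), S (-0.18 to 0.48) and G2M (-0.0014 to 0.89), and in G2M cells for Hes1 (-0.087 to 0.17) and Jag1 (-0.56 to 0.033). The causes were not tested. No pairing of samples by replicate number was seen: the correlations of same-numbered deviations were -0.121, -0.117, -0.0946 and 0.291, and only number 4 matched its own number best. So few libraries cannot exclude a pairing. With the replicate number as a block, the counts were 6 higher and 1 lower in all cells, 4 and 0 in G1, 4 and 1 in S and 2 and 0 in G2M cells, and 22 and 13 of the wider list. Depth limits Hey1 and Heyl most.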
